A study of Homo sapiens with 24 samples.

Results

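The genes described here form the module around ATF4, the transcription factor of the integrated stress response, together with the enzymes that make serine, one-carbon units and other amino acids. The module is a list of 36 gene symbols, chosen, like the other gene lists below, with earlier results of these data known. Counts from these lists set against all genes are therefore descriptions. A gene was kept when at least 1 of its probes had a detection p below 0.01 on at least 2 arrays. This left 30 of the 36 genes, out of 12141 genes measured in the series. They comprise 3 genes of serine synthesis, 5 of folate one-carbon metabolism, 7 of other amino acid synthesis, 8 transcription factors and 7 effector and feedback genes. The probes of ALDH1L2, BCAT1, CBS, CHAC1 and VLDLR were detected on 0 arrays, and GPT2 was not analysed here. Of the 30 genes, 28 were detected on all 24 arrays, SESN2 on 23 and NUPR1 on 11, so that some differences in NUPR1 are bounds.

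The arrays measured RNA from SW480, an established colon cancer cell line, after stable infection with pBABE-puro retrovirus carrying BOP1, CKS2 or NFIL3, or with the control retrovirus. All 12 groups were treated for 24 hours and consisted of 2 arrays, which the labels call biological replicates. The BOP1 line received the PI3K inhibitor LY294002 (3.3 µM), SP600125 (33.3 nM), which inhibits JNK, the gamma-secretase inhibitor DAPT (667 nM), or the solvent DMSO. The CKS2 line received LY294002 (3.3 µM), the p38 inhibitor SB203580 (3.3 µM) or DMSO. The NFIL3 line received LY294002 (3.3 µM), the mTOR inhibitor Rapamycin (33.3 nM), SB203580 (3.3 µM) or DMSO, and the control line received DMSO alone. Every comparison of an inhibitor within a line therefore shares the 2 DMSO arrays of that line, and every comparison with the control line shares the same 2 control arrays.

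When translation factor eIF2 is phosphorylated, or when mTORC1 is active in growing cells, more ATF4 protein is made from its mRNA. ATF4 pairs with C/EBP proteins at sites named CARE or NSRE and switches on genes for amino acid synthesis, amino acid uptake and tRNA charging. Because ATF4 is controlled largely at translation, the level of its mRNA and the level of its targets need not move together. In colon and other cancers the module supplies serine, glycine, asparagine and folate-bound carbon units for growth.

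The arrays had a mean raw signal of 971 to 1366 and 17984 to 19958 detected probes, and replicate arrays correlated across genes at 0.991 to 0.996. Before normalization, mean raw signal was lower on both LY294002 arrays than on both DMSO arrays in each of the 3 lines. The same held for Rapamycin and for SB203580 in both lines that received it, and the part of this shift was not tested. The 2 control arrays had 18085 and 18067 detected probes, against 18435 to 19666 on the 6 DMSO arrays of the other lines, so detection moved with the comparison of lines and its part there was not tested. The epithelial markers EPCAM, KRT8, KRT18, KRT19 and CDX2 were detected on 24 arrays, whereas CDX1 and VIL1 were detected on 0. Of the leukocyte markers, PTPRC and CD3E were detected on 0 arrays and CD14 on 7, and of the endothelial markers PECAM1 and CDH5 on 0 and VWF on 1. Of the fibroblast markers, COL1A1 was detected on 24 arrays (up to 7.77), COL1A2 on 2, and COL3A1 and DCN on 0. Of the hepatocyte markers, ALB was detected on 24 (up to 8.29), and APOA1 and TTR on 0. The introduced genes were not higher in the lines named for them. The BOP1 probe averaged 12.89 on the log2 scale in the BOP1 line and 13.45 in the control line. The 2 CKS2 probes averaged 14.20 and 12.78 in the CKS2 line, against 14.33 and 13.22 in the control line, and the NFIL3 probe read 10.42 in its own line, against 10.43 in the control line. Which part of each transcript these probes read was not examined, and the lines are called by their labels below, as the BOP1-labelled, CKS2-labelled and NFIL3-labelled lines.

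Sequences from 250 bases before to 50 bases after the transcription start were available from RefSeq (GRCh38.p14) for 25 of the 30 genes. The 8-base core TGATGNAA of the ATF4 and C/EBP composite site, read on either strand as TGATGNAA or TTNCATCA, occurred in the windows of 6 of these 25 genes (24.0%), against 4.46% of the 27305 genes with a window. The 30 genes were listed for their place around ATF4, so the difference between these shares is no test of the list. The 6 genes were ASNS, CEBPG, GOT1, JDP2, MTHFD1L and ATF3. The first 5 of them are shown because all 5 fell under LY294002 over the 3 lines, as described further on, and 9 of the 19 genes without the core fell as well. ATF3 changed by 0.09 there and did not pass. Capitals mark the core, and the match is a description of letters in this window alone. The windows are chr7:97872359-97872658 on the minus strand for ASNS, chr19:33373863-33374162 on the plus strand for CEBPG, chr10:99430575-99430874 on the minus strand for GOT1, chr14:75427772-75428071 on the plus strand for JDP2 and chr6:150866197-150866496 on the plus strand for MTHFD1L. The core began 68 bases before the start in ASNS, 42 in CEBPG, 198 in GOT1, where it lies on the opposite strand, 16 in JDP2 and 90 in MTHFD1L. 
ASNS: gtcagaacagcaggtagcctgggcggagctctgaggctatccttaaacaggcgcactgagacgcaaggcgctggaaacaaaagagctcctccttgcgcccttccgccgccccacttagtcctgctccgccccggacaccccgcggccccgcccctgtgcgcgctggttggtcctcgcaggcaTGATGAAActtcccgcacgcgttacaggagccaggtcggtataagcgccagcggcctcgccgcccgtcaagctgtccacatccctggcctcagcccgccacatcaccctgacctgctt
CEBPG: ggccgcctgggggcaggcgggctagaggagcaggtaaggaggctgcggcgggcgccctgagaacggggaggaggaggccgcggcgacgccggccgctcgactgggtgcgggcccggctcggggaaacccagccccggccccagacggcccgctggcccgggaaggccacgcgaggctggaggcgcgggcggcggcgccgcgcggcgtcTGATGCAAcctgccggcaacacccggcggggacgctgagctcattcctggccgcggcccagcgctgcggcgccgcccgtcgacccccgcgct
GOT1: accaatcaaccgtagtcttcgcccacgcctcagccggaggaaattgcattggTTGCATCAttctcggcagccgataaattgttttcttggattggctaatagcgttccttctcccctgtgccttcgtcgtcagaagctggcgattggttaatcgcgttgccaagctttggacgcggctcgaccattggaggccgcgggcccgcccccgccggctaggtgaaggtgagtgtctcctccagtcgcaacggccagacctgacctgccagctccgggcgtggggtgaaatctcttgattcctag
JDP2: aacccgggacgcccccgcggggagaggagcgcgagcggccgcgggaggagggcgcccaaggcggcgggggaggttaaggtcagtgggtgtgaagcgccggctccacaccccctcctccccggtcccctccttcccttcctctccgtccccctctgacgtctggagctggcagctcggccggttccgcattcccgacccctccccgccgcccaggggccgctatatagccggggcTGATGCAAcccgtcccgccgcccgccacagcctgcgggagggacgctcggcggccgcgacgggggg
MTHFD1L: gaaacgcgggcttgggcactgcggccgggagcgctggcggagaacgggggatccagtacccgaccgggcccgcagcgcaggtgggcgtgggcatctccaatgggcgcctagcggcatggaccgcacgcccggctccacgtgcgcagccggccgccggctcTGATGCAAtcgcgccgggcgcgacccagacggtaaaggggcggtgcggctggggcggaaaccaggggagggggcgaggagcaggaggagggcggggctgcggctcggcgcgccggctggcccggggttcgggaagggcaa

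Across the 11 comparisons of 2 groups with DMSO or with the control line, 21 of the 30 genes had a limma adjusted p under 0.05 at least once and 9 did not. No share of all genes called at least once was counted, so 21 of 30 is a description and no result about the module. The 9 were PSPH, SHMT1, ALDH18A1, PYCR1, ATF4, CEBPB, CEBPG, SESN2 and EIF4EBP1, of which PYCR1, ATF4 and CEBPG passed for LY294002 over the 3 lines as a whole. Levels are log2 values after normalization, and a change is the difference between 2 group means on that scale. With 2 arrays a group the median standard error of such a change over all genes was 0.13, and 0.07 over the 3 lines under LY294002. ASNS had the widest range of group means of the module (1.91), from 13.69 under DAPT in the BOP1-labelled line down to 11.78 under Rapamycin in the NFIL3-labelled line.

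**Figure D1:**
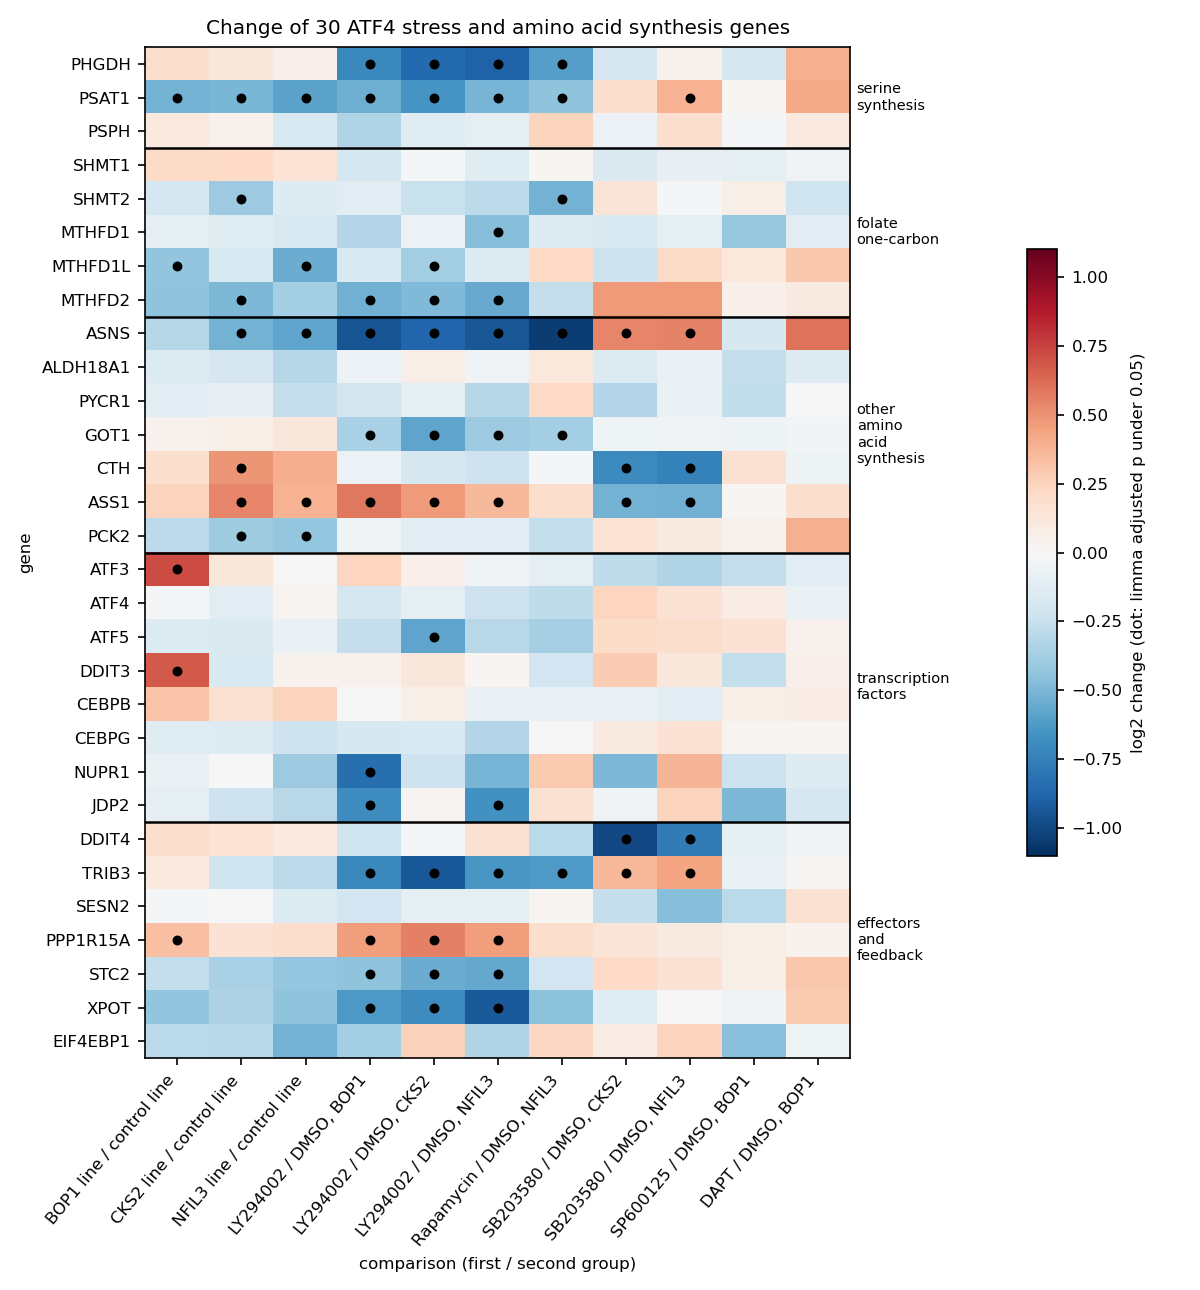
Change of each of the 30 genes (rows, grouped by role) in the 11 comparisons (columns, first group over second), as log2 change by colour, with a dot where the limma adjusted p was under 0.05. The 3 columns for LY294002 are the fullest, with 12 dots each, and the columns for SP600125 and DAPT have 0.

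Of the 15 serine, folate and other amino acid synthesis genes, 5 fell under LY294002 in 3 of 3 lines (PHGDH, PSAT1, MTHFD2, ASNS and GOT1), 2 fell in 1 line and 8 in no line. The feedback gene TRIB3, the secreted STC2 and the tRNA exporter XPOT also fell in 3 of 3 lines, and 2 genes, PPP1R15A and ASS1, rose in 3 of 3. How many of all genes fell or rose in 3 of 3 lines was not counted, so these counts are descriptions. Over the 3 lines, 17 of the 30 genes fell and 2 rose by limma (adjusted p below 0.05), against 26.4% and 22.8% of all 12141 genes, 49.2% in either direction. The median log2 change was -0.21 over the 30 genes and -0.02 over all genes. Without any 1 of the 12 arrays the count lay between 17 and 19.

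PHGDH, the first enzyme of serine synthesis, was at 13.34 and 13.39 under LY294002 in the BOP1-labelled line, against 13.98 and 14.16 in DMSO. It was at 13.17 and 13.14 under LY294002 in the CKS2-labelled line, against 14.05 and 13.96 in DMSO, and at 13.08 and 13.00 under LY294002 in the NFIL3-labelled line, against 13.83 and 14.03 in DMSO. All 6 LY294002 arrays lay below all 6 DMSO arrays, and the change over the 3 lines was -0.82 ± 0.06 (SE; 1.76-fold; limma adjusted p = 3.06e-08). PSAT1, the aminotransferase of the next step, was at 11.24 and 11.25, 11.12 and 11.18, and 11.24 and 11.16 under LY294002 in the BOP1-, CKS2- and NFIL3-labelled lines, against 11.66 and 11.89, 11.70 and 11.90, and 11.70 and 11.72 in DMSO. Here too the groups did not overlap in any line, with a change of -0.57 ± 0.07 (limma adjusted p = 4.13e-06). PSPH, the phosphatase that completes the pathway, changed by -0.19 ± 0.09 and did not pass (limma adjusted p = 0.0719).

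Of the 5 folate genes, 4 fell. MTHFD2, a mitochondrial dehydrogenase of the one-carbon pathway, fell by 0.52 ± 0.09 over the 3 lines (limma adjusted p = 0.000187) and passed in each line. MTHFD1, the cytosolic enzyme, fell by 0.28, MTHFD1L, which releases formate in mitochondria, by 0.23, and SHMT2, the mitochondrial serine hydroxymethyltransferase, by 0.22, with limma adjusted p from 0.00945 to 0.0181. The call of SHMT2 was lost without any of 3 single arrays (replicate 1 of CKS2-labelled DMSO, replicate 1 of BOP1-labelled LY294002, replicate 2 of CKS2-labelled LY294002; adjusted p up to 0.0618). SHMT1, the cytosolic form, changed by -0.12 and did not pass.

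ASNS, asparagine synthetase and a standard ATF4 target, had the largest fall of the module under LY294002 over the 3 lines. Its levels were 12.03 and 12.26 under LY294002 in the BOP1-labelled line, against 13.01 and 13.17 in DMSO. They were 12.00 and 12.02 in the CKS2-labelled line, against 12.98 and 12.79 in DMSO, and 11.96 and 11.81 in the NFIL3-labelled line, against 12.79 and 12.86 in DMSO. The fall was of like size in each line, at -0.95, -0.88 and -0.94, and -0.92 ± 0.06 over the 3 lines (1.89-fold; limma adjusted p = 2.73e-08). GOT1, the cytosolic aspartate aminotransferase, fell by 0.44 ± 0.06 (limma adjusted p = 9.69e-06). PYCR1, of proline synthesis, fell by 0.21 (limma adjusted p = 0.0379), a call lost without any of 8 single arrays and without the detection filter. Of its other 2 probes, 1 changed by -0.32 and did not pass, and 1 by -0.39 and passed (limma adjusted p = 0.0522 and 0.004).

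ASS1, which makes argininosuccinate for arginine synthesis, moved the other way. It was at 12.26 and 12.24 under LY294002 in the BOP1-labelled line, against 11.77 and 11.57 in DMSO. In the CKS2-labelled line it was at 12.39 and 12.47 under LY294002, against 12.06 and 11.85 in DMSO, and in the NFIL3-labelled line at 12.18 and 12.14, against 11.79 and 11.82. The rise of 0.47 ± 0.05 (limma adjusted p = 3.98e-06) was also seen with a second bright probe (0.48), whereas the third and dimmest probe changed by -0.17 and did not pass. CTH, PCK2 and ALDH18A1 changed by -0.16, -0.10 and -0.01 over the 3 lines and did not pass.

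Among the transcription factors, ATF4 mRNA itself moved little. Its levels were 14.26 and 14.34 under LY294002 in the BOP1-labelled line, against 14.53 and 14.44 in DMSO, and 14.30 and 14.32 in the NFIL3-labelled line, against 14.63 and 14.46. In the CKS2-labelled line the arrays overlapped, at 14.36 and 14.23 under LY294002 and 14.34 and 14.45 in DMSO. The change over the 3 lines was -0.17 ± 0.05 (1.13-fold; limma adjusted p = 0.00796). That call was lost with cyclic loess normalization and with the mean of the probes (-0.09 and -0.10; adjusted p up to 0.15), and the other 2 ATF4 probes changed by -0.07 and -0.06 without passing.

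ATF5, a related factor also controlled at translation, fell by 0.38 ± 0.08 (limma adjusted p = 0.00104), and CEBPG, a dimer partner of ATF4, by 0.22 (limma adjusted p = 0.022). The CEBPG call was lost without any of 3 single arrays (replicate 1 of NFIL3-labelled DMSO, replicate 2 of BOP1-labelled LY294002 or replicate 2 of CKS2-labelled LY294002), with adjusted p up to 0.0743. JDP2, a bZIP factor that represses AP-1 sites, fell by 0.44 over the 3 lines (limma adjusted p = 0.00278), and by 0.25 with the authors' processed values. It was at 6.53 and 6.47 under LY294002 in the BOP1-labelled line, against 7.21 and 7.16 in DMSO, and at 6.46 and 6.18 in the NFIL3-labelled line, against 6.73 and 7.24. In the CKS2-labelled line its arrays overlapped, at 7.01 and 7.17 under LY294002 and 7.23 and 6.88 in DMSO. The difference between the effects in the BOP1-labelled and CKS2-labelled lines was -0.72 ± 0.26 and did not pass (limma adjusted p = 0.764). NUPR1, a small stress-induced chromatin protein, was below background on every LY294002 array of the BOP1-labelled and NFIL3-labelled lines. In the BOP1-labelled line this gave a level at least 1.14-fold lower (measured means 5.37 under LY294002 and 6.20 in DMSO; limma adjusted p = 0.0162), and in the NFIL3-labelled line both groups were below background. Over the 3 lines NUPR1 passed (limma adjusted p = 0.00348) and is among the 17 genes that fell, by 0.52, or by 0.23 with the authors' processed values. DDIT3 (CHOP), ATF3 and CEBPB changed by 0.06, 0.09 and less than 0.01 over the 3 lines and did not pass.

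Effector genes split by direction. TRIB3, a pseudokinase induced by ATF4 that in turn restrains it, was at 10.52 and 10.47 under LY294002 in the BOP1-labelled line, against 11.19 and 11.22 in DMSO. It was at 10.06 and 9.82 in the CKS2-labelled line, against 10.84 and 10.90 in DMSO, and at 10.09 and 10.24 in the NFIL3-labelled line, against 10.67 and 10.94 in DMSO. LY294002 arrays were the lower ones in each line, and the change was -0.76 ± 0.06 (limma adjusted p = 8.9e-08). XPOT, which exports tRNA from the nucleus, fell by 0.75 ± 0.08 (limma adjusted p = 2.98e-06), and STC2, a secreted glycoprotein of the stress response, by 0.52 ± 0.08. XPOT was at 9.32 and 9.34 under LY294002 in the BOP1-labelled line, against 9.75 and 10.17 in DMSO, at 9.50 and 9.22 in the CKS2-labelled line, against 10.05 and 10.06, and at 8.82 and 9.24 in the NFIL3-labelled line, against 10.03 and 9.86. All 6 LY294002 arrays lay below all 6 DMSO arrays.

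PPP1R15A (GADD34), which brings a phosphatase to eIF2 and so ends the response, rose in all 3 lines, by 0.46, 0.55 and 0.46 in the BOP1-, CKS2- and NFIL3-labelled lines, where ASS1 rose by 0.58, 0.47 and 0.35. It was at 11.21 and 11.23 under LY294002 in the BOP1-labelled line, against 10.76 and 10.76 in DMSO, at 11.21 and 11.07 in the CKS2-labelled line, against 10.49 and 10.69, and at 11.06 and 11.11 in the NFIL3-labelled line, against 10.73 and 10.51. The groups did not overlap in any line (0.49 ± 0.05; limma adjusted p = 2.22e-06). DDIT4 and SESN2, which hold back mTORC1, and EIF4EBP1, the translation repressor that mTORC1 phosphorylates, changed by -0.02, -0.14 and -0.15 and did not pass.

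**Figure D2:**
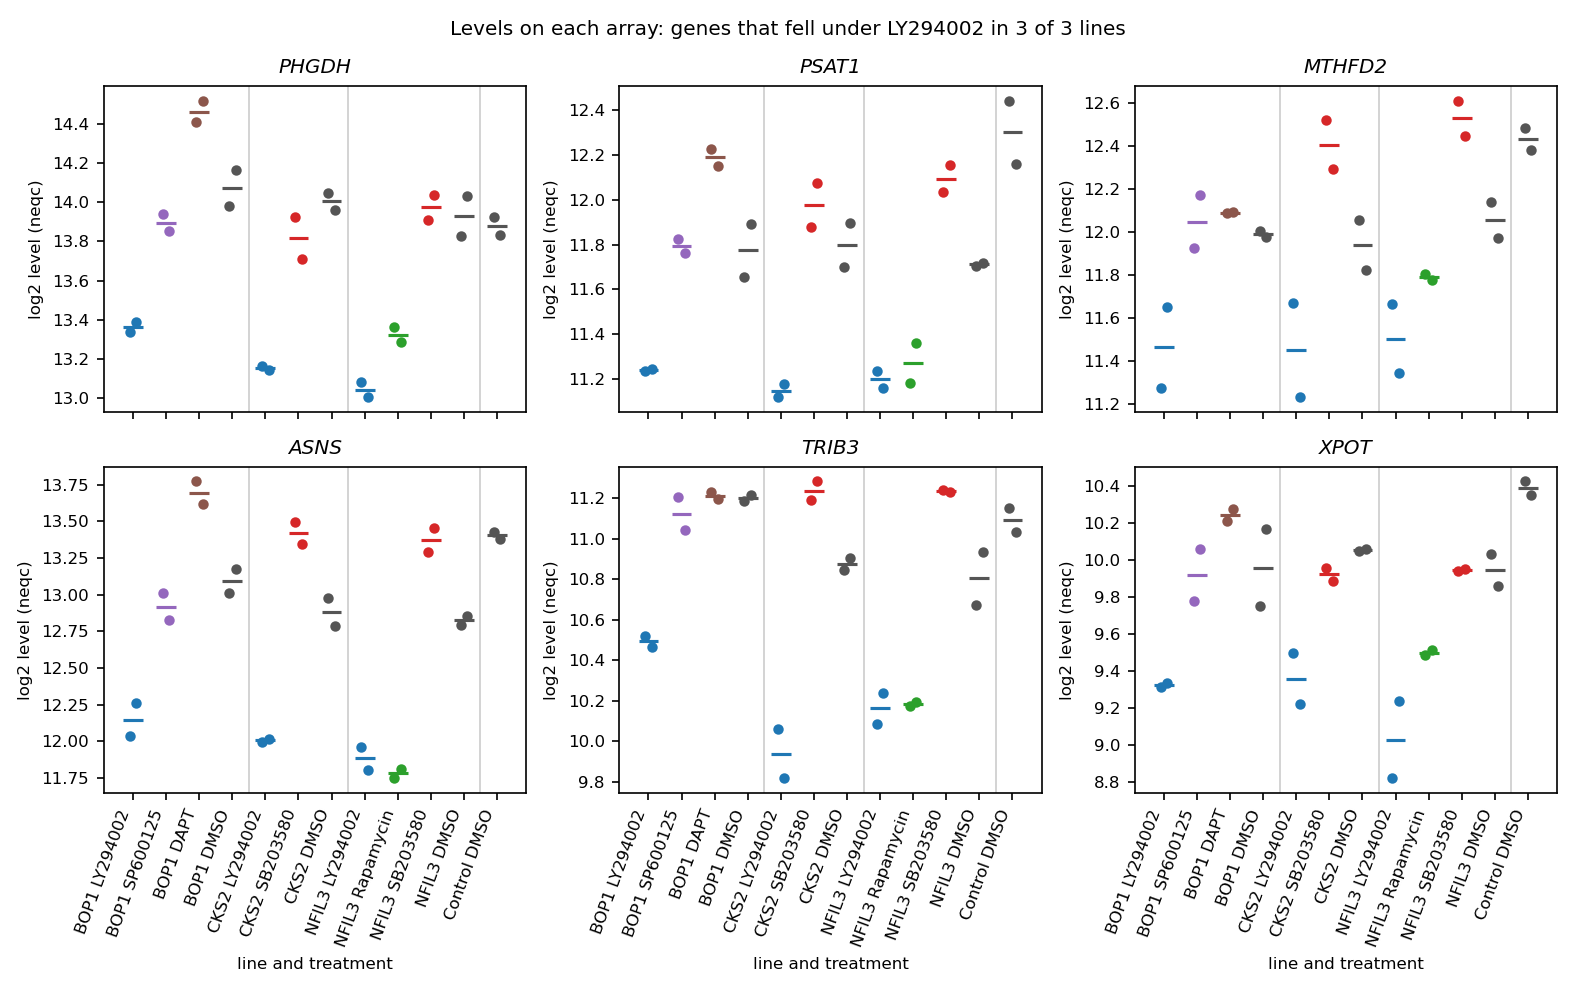
Level on each array (log2, 1 point an array, bar at the mean of 2) of 6 genes that fell under LY294002 in 3 of 3 lines, by line and treatment. PHGDH under LY294002 lies between 13.00 and 13.39 and in DMSO at 13.83 or above, and Rapamycin in the NFIL3-labelled line gave PHGDH levels of 13.36 and 13.29.

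Within single lines LY294002 gave 12 calls each, 10 down and 2 up, against 21.6% of all genes called in the BOP1-labelled line (11.2% down, 10.4% up), 25.6% in the CKS2-labelled line (13.9% down, 11.7% up) and 25.9% in the NFIL3-labelled line (13.8% down, 12.1% up). The 8 genes that fell in 3 of 3 lines were PHGDH, PSAT1, MTHFD2, ASNS, GOT1, TRIB3, STC2 and XPOT, and ASS1 and PPP1R15A rose in 3 of 3. These counts have no share of all genes beside them. Calls in fewer lines were NUPR1 and JDP2 (-0.69) in the BOP1-labelled line, ATF5 (-0.58) and MTHFD1L (-0.38) in the CKS2-labelled line, and JDP2 (-0.66) and MTHFD1 (-0.47) in the NFIL3-labelled line. The ASS1 calls in the BOP1-labelled and NFIL3-labelled lines were lost with the mean of its probes (0.25 and 0.17; adjusted p = 0.124 and 0.293), which gave 0.26 over the 3 lines. Without replicate 1 of LY294002 in the BOP1-labelled line MTHFD2 was at -0.34, and without replicate 2 there STC2 was at -0.26. Without replicate 2 of LY294002 in the CKS2-labelled line MTHFD2 was at -0.27, and each of these lost its call. A fit on the 4 arrays of a line lost MTHFD2 in each line and GOT1 in the BOP1- and NFIL3-labelled lines. It also lost STC2 in the BOP1- and CKS2-labelled lines, XPOT in the BOP1-labelled line, and ASS1 and PPP1R15A in the CKS2- and NFIL3-labelled lines. No gene of the module passed a limma test of the difference in effect between lines, where 0% of all genes passed between the BOP1- and CKS2-labelled lines, 0.14% (0.0329% up, 0.107% down) between the BOP1- and NFIL3-labelled lines and 0.297% (0.0329% up, 0.264% down) between the CKS2- and NFIL3-labelled lines. At an unadjusted p below 0.05 those 3 tests had 2, 1 and 2 genes of the module, against 6.42, 10.1 and 10.8% of all genes. Leaving out single arrays gave 7 to 9 calls in the BOP1-labelled line, 8 to 14 in the CKS2-labelled line and 8 to 10 in the NFIL3-labelled line. ASNS, PHGDH and TRIB3 passed in all 3 lines under every alternative run.

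Neighbouring parts of the pathway gave the following counts under LY294002 over the 3 lines, where 49.2% of all genes were called. Of 18 measured cytosolic aminoacyl-tRNA synthetases, which charge tRNA with amino acids, 12 fell and 2 rose (77.8% called). YARS1 fell by 0.71, MARS1 by 0.59, WARS1 by 0.46 and IARS1 by 0.37. Of 9 amino acid carriers, 6 fell and 1 rose (77.8% called): SLC7A5, the large neutral amino acid carrier, fell by 0.74, SLC6A9, a glycine carrier, by 0.63, and SLC38A2, a carrier of small neutral amino acids, rose by 0.38. Of 11 genes of the folate cycle and glycine cleavage, 5 fell and 1 rose (54.5% called), among them GLDC (-0.51) and AMT (0.85), which are both parts of the glycine cleavage system. Of 17 eIF2 kinase, eIF2 and eIF2B genes, 5 fell and 2 rose (41.2% called), with EIF2B1 and EIF2B2, subunits of the exchange factor for eIF2, at -0.36 each. The last 2 of these shares lie near or below that of all genes and are no result about their lists.

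Other genes described as ATF4 or CHOP targets went mostly the other way, 10 of 15 up and 3 down (86.7% called). KLHL24 rose by 1.15, GDF15, a stress cytokine, by 0.85 and CREBRF, a bZIP regulator, by 0.67, while HMOX1, heme oxygenase, fell by 0.77. The median log2 change of these 15 genes was 0.28, against -0.57 for the 3 genes of serine synthesis and -0.25 for the 18 synthetases. Several of the 15 genes are also targets of other transcription factors, and their part was not tested.

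Rapamycin was tested in the NFIL3-labelled line alone and lowered 6 of the 30 genes, raising 0, against 4.09% of all genes down and 3.53% up (7.61% in either direction). The 6 were ASNS, PHGDH, PSAT1, SHMT2, GOT1 and TRIB3. ASNS was at 11.75 and 11.81 under Rapamycin, against 12.79 and 12.86 in DMSO, which is a 2.06-fold difference (-1.04 ± 0.11; limma adjusted p = 0.0002). TRIB3 was at 10.18 and 10.19 under Rapamycin, against 10.67 and 10.94 in DMSO (-0.62 ± 0.10; limma adjusted p = 0.00368). PHGDH was at 13.36 and 13.29 under Rapamycin, against 13.83 and 14.03 in DMSO (-0.61 ± 0.10; limma adjusted p = 0.00368). In each of the 6 genes both Rapamycin arrays lay below both DMSO arrays.

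SHMT2 was at 12.57 and 12.63 under Rapamycin, against 13.11 and 13.14 in DMSO (-0.52 ± 0.12; limma adjusted p = 0.0192). PSAT1 fell by 0.44 (limma adjusted p = 0.0282) and GOT1 by 0.37 (limma adjusted p = 0.0308). ATF4 mRNA was at 14.25 and 14.27 under Rapamycin and 14.63 and 14.46 in DMSO, a change of -0.28 ± 0.08 that did not pass (limma adjusted p = 0.0533). XPOT (-0.45; limma adjusted p = 0.069) and DDIT4 (-0.30; adjusted p = 0.138) also missed the threshold. A fit on these 4 arrays alone called 0 of the 30 genes, with adjusted p of 0.0718 for ASNS, 0.0764 for PHGDH and 0.0794 for TRIB3. Without any 1 of the 4 arrays these 3 genes still passed and PSAT1, SHMT2 and GOT1 did not (adjusted p up to 0.184). Of the neighbouring genes, 4 of 18 synthetases fell, with YARS1 at -0.61, and 1 of 9 carriers fell, with SLC7A5 at -0.36. Among the eIF2 kinase, eIF2 and eIF2B genes 1 of 17 rose, and among the folate cycle and glycine cleavage genes 1 of 11. The 15 other targets had 2 up and 1 down, where 7.61% of all genes were called.

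LY294002 and Rapamycin were set against each other within the NFIL3-labelled line, at their single doses of 3.3 µM and 33.3 nM, which are not matched. Here 7 of the 30 genes differed, 6 lower and 1 higher under LY294002, against 16.5% of all genes (8.09% lower, 8.38% higher). JDP2 was at 6.46 and 6.18 under LY294002 and 7.29 and 7.00 under Rapamycin (-0.83 ± 0.18; limma adjusted p = 0.00697). PYCR1 was at 11.48 and 11.67 under LY294002 and 12.05 and 12.18 under Rapamycin (-0.54 ± 0.14; limma adjusted p = 0.0133). Its other 2 probes differed by -0.22 and -0.33 and did not pass (limma adjusted p = 0.557 and 0.217). DDIT4 was at 12.10 and 12.41 under LY294002 and 11.67 and 11.92 under Rapamycin (0.46 ± 0.12; limma adjusted p = 0.0152). In each of these 3 genes the arrays of the 2 inhibitors did not overlap.

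EIF4EBP1 (-0.56), XPOT (-0.47) and MTHFD1L (-0.36) were lower under LY294002 as well, with limma adjusted p from 0.0362 to 0.0493, and NUPR1 was below background there and at least 1.14-fold lower (limma adjusted p = 0.0244). The 7 calls fell to 2 or 3 without any 1 of the 4 arrays, with XPOT at -0.26 and MTHFD1L at -0.21 without replicate 1 of LY294002. With the authors' processed values JDP2 differed by -0.46. None of the 7 passed under every alternative (adjusted p up to 0.34), and the MTHFD1L call was also lost with the replicate number as a block. ASNS differed by 0.10 ± 0.11, PSAT1 by -0.07 ± 0.11, TRIB3 by -0.02 ± 0.10 and GOT1 by -0.03 ± 0.10 between the 2 inhibitors and did not pass. PHGDH differed by -0.28 ± 0.10 (limma adjusted p = 0.0642).

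**Figure D3:**
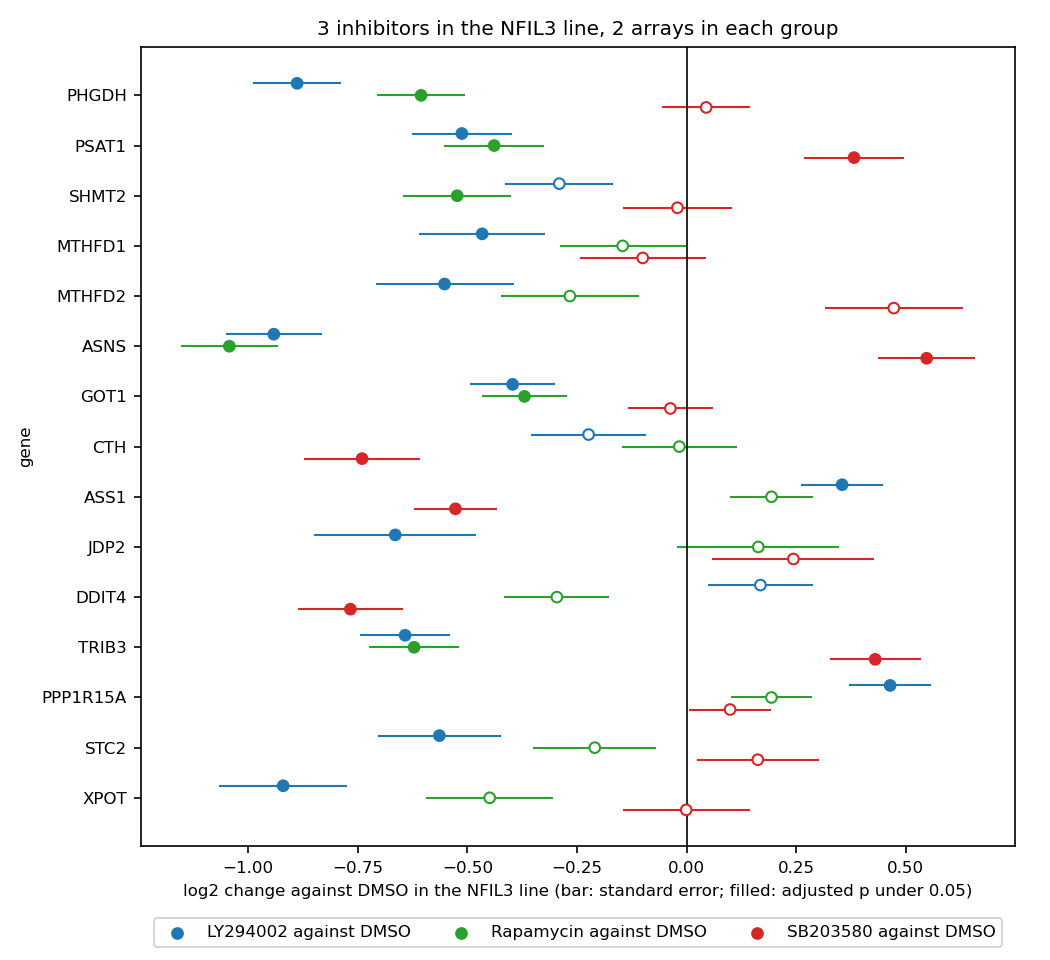
Log2 change against DMSO (bar: standard error) under LY294002, Rapamycin and SB203580 in the NFIL3-labelled line for the 15 genes called under at least 1 of them. Filled points passed a limma adjusted p of 0.05; ASNS and TRIB3 lie left of 0 under LY294002 and Rapamycin and right of 0 under SB203580.

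SB203580 was tested in the CKS2-labelled and NFIL3-labelled lines. DDIT4, CTH and ASS1 were lower and ASNS and TRIB3 higher in both lines, and PSAT1 was higher in the NFIL3-labelled line. This made 5 calls of 30 in the CKS2-labelled line (2 up, 3 down), against 12.5% of all genes (5.08% up, 7.4% down), and 6 in the NFIL3-labelled line (3 up, 3 down), against 12.4% (4.56% up, 7.85% down). A count of 5 or 6 in 30 is near this background and is no result about the module as a whole. Leaving out single arrays gave 3 to 4 calls in the CKS2-labelled line and 3 to 5 in the NFIL3-labelled line, and a fit on the 4 arrays of the NFIL3-labelled line kept only DDIT4.

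DDIT4 (REDD1), an inhibitor of mTORC1, had the largest change. It was at 11.07 and 11.21 under SB203580 in the CKS2-labelled line, against 12.14 and 12.12 in DMSO (1.99-fold lower; -0.99 ± 0.12; limma adjusted p = 0.000106). In the NFIL3-labelled line it was at 11.36 and 11.29 under SB203580, against 12.22 and 11.96 in DMSO (-0.77 ± 0.12; limma adjusted p = 0.000698). All 4 SB203580 arrays lay below the DMSO arrays of either line, and both calls passed under every alternative run.

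CTH, which releases cysteine from cystathionine, was at 9.21 and 9.39 under SB203580 in the CKS2-labelled line, against 9.97 and 10.03 in DMSO. It was at 9.31 and 9.03 in the NFIL3-labelled line, against 9.78 and 10.04 in DMSO, and no arrays overlapped (-0.70 and -0.74, SE 0.13; limma adjusted p = 0.00277 and 0.00171). ASS1 was at 11.45 and 11.43 under SB203580 in the CKS2-labelled line, against 12.06 and 11.85 in DMSO, and at 11.33 and 11.24 in the NFIL3-labelled line, against 11.79 and 11.82 (-0.52 and -0.53, SE 0.09). Both ASS1 changes passed (limma adjusted p = 0.00196 and 0.00171), with the opposite sign to the change under LY294002 in the same lines, a comparison that shares the DMSO arrays.

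ASNS was at 13.50 and 13.35 under SB203580 in the CKS2-labelled line, against 12.98 and 12.79 in DMSO, and at 13.29 and 13.45 in the NFIL3-labelled line, against 12.79 and 12.86. All 4 SB203580 arrays were the higher ones (0.54 and 0.55, SE 0.11; limma adjusted p = 0.00459 and 0.00416). TRIB3 rose by 0.36 and 0.43 (limma adjusted p = 0.0303 and 0.0125). The ASNS call in the CKS2-labelled line was lost without replicate 2 of DMSO or replicate 1 of SB203580 (adjusted p up to 0.0592), and the TRIB3 call there without any of the 4 arrays (up to 0.169). In the NFIL3-labelled line the ASNS call was lost without replicate 2 of SB203580, and that of TRIB3 without replicate 1 of DMSO or either SB203580 array.

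PSAT1 was at 12.03 and 12.15 under SB203580 in the NFIL3-labelled line, against 11.70 and 11.72 in DMSO (0.38 ± 0.11; limma adjusted p = 0.0358), a call lost without any 1 of the 4 arrays. In the CKS2-labelled line its arrays overlapped. MTHFD2 was higher by 0.47 in either line and missed the threshold (limma adjusted p = 0.0621 and 0.0596), and ATF4, at 14.63 and 14.63 in the CKS2-labelled and 14.71 and 14.70 in the NFIL3-labelled line under SB203580, by 0.23 and 0.16 (limma adjusted p = 0.0817 and 0.23). A second ATF4 probe rose by 0.40 in the NFIL3-labelled line (limma adjusted p = 0.0435), while the third and dimmest changed by -0.14 there and did not pass (limma adjusted p = 0.589). In the limma test of the difference in SB203580 effect between the 2 lines 0 genes of the module and 0% of all genes passed, and 2 genes of the module had an unadjusted p below 0.05, against 3.87% of all genes. Of the carriers, 3 of 9 rose in each line, among them SLC7A11 by 1.04 and 1.22 and SLC38A1 by 0.92 and 1.08. Of the synthetases, 4 of 18 rose in the CKS2-labelled line and 3 in the NFIL3-labelled line, and 0 fell. In the same 2 lines the 17 eIF2 kinase, eIF2 and eIF2B genes had 0 and 2 calls. The 11 folate cycle and glycine cleavage genes had 1 and 0, and the 15 other targets 2 and 4. Of all genes 12.5 and 12.4% were called.

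**Figure D4:**
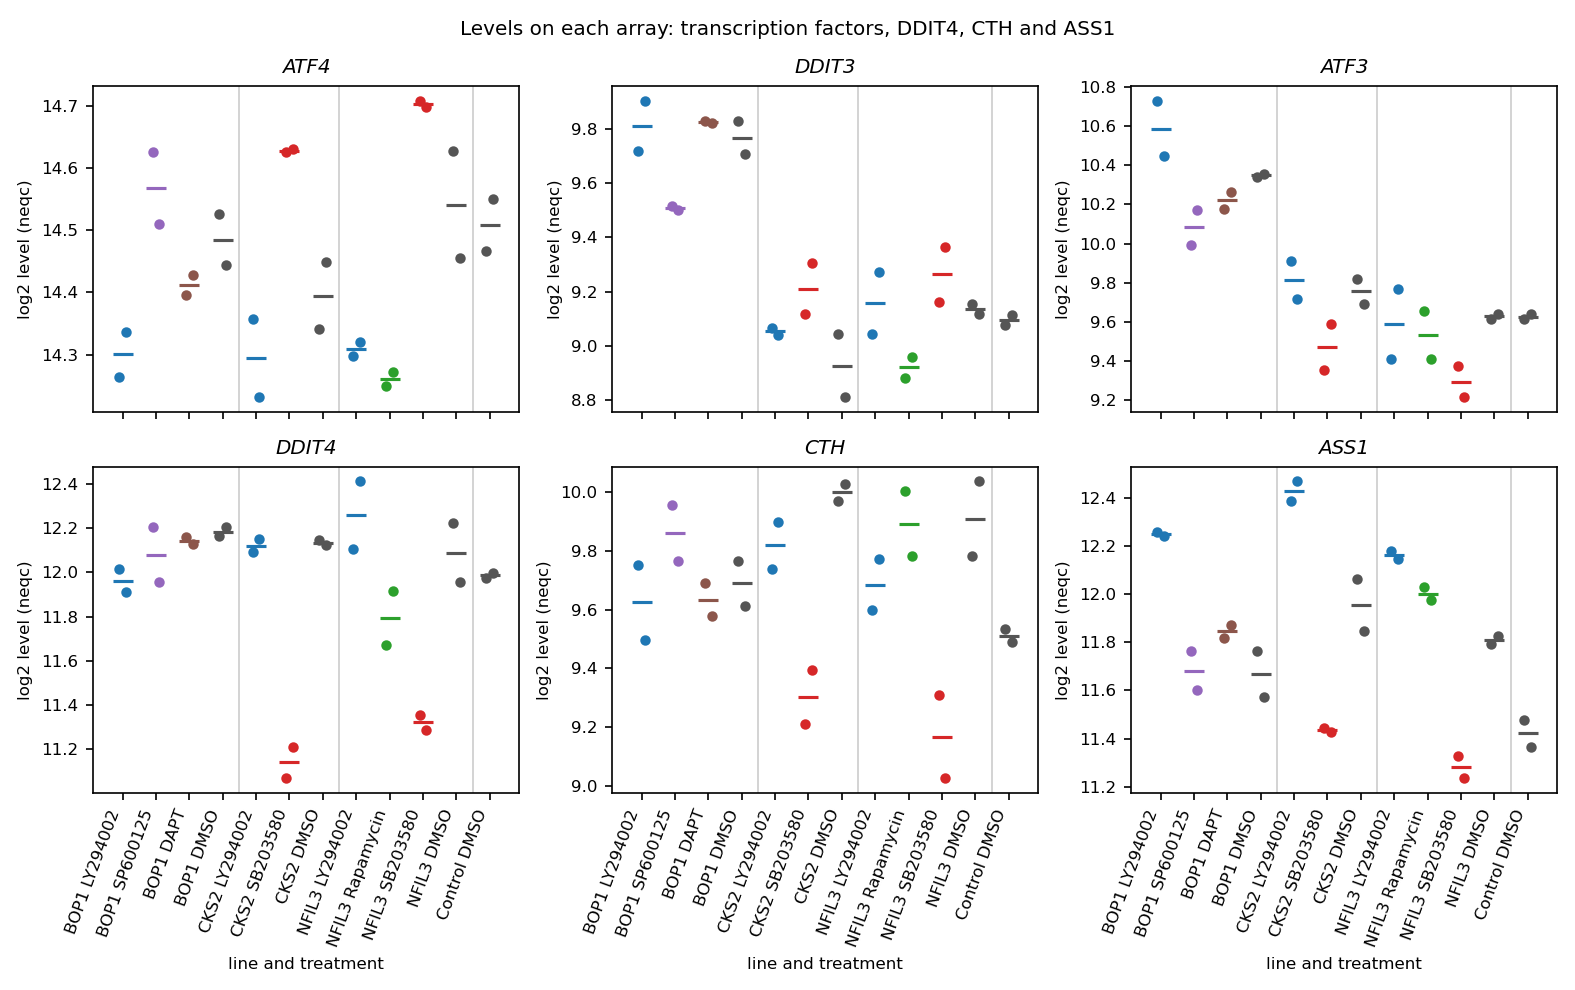
Level on each array (log2, 1 point an array, bar at the mean of 2) of ATF4, DDIT3, ATF3, DDIT4, CTH and ASS1 by line and treatment. DDIT4 is lowest under SB203580, at 11.07 to 11.36, and DDIT3 is at 9.50 or above on the 8 arrays of the BOP1-labelled line and at 9.37 or below on all others.

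The BOP1-, CKS2- and NFIL3-labelled lines were each compared with the control line in DMSO. PSAT1 passed as lower in all 3, ASNS, PCK2 and MTHFD1L each in 2, and ASS1 passed as higher in 2. The calls were 5 of 30 in the BOP1-labelled line (3 up, 2 down), 7 in the CKS2-labelled line (2 up, 5 down) and 5 in the NFIL3-labelled line (1 up, 4 down). Of all genes 13.4% were called in the BOP1-labelled line (8.26% up, 5.11% down), 13.7% in the CKS2-labelled line (8.27% up, 5.41% down) and 14.1% in the NFIL3-labelled line (8.72% up, 5.41% down). The called shares of the module were 16.7, 23.3 and 16.7%. The shares of down calls were above those of all genes in the 3 lines, most narrowly in the BOP1-labelled line (2 of 30 against 5.11%). Few of these calls were stable, as given below, and the counts are no result about the module as a whole. PHGDH, the first step of serine synthesis, changed by 0.19, 0.13 and 0.05 in these lines and did not pass. The median log2 change of the 30 genes was -0.09, -0.14 and -0.17 in these lines, against 0.01 over all genes in each.

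PSAT1 was at 11.66 and 11.89 in the BOP1-labelled line, 11.70 and 11.90 in the CKS2-labelled line and 11.70 and 11.72 in the NFIL3-labelled line, against 12.44 and 12.16 in the control line. Its changes of -0.52, -0.50 and -0.59 (SE 0.11; limma adjusted p = 0.00722, 0.00892 and 0.00336) share the 2 control arrays. ASNS was at 12.98 and 12.79 in the CKS2-labelled line and 12.79 and 12.86 in the NFIL3-labelled line, against 13.43 and 13.38 in the control line (-0.52 and -0.58; limma adjusted p = 0.00605 and 0.00306). In the BOP1-labelled line ASNS was also below both control arrays, at 13.01 and 13.17, with a change of -0.31 that did not pass (limma adjusted p = 0.0708).

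MTHFD1L was at 11.94 and 11.70 in the BOP1-labelled line and 11.62 and 11.80 in the NFIL3-labelled line, against 12.22 and 12.30 in the control line (-0.44 and -0.55; limma adjusted p = 0.0232 and 0.00646). In the CKS2-labelled line it was lower by 0.17 and did not pass. PCK2, the mitochondrial enzyme that makes phosphoenolpyruvate, was lower by 0.40 and 0.43 in the CKS2-labelled and NFIL3-labelled lines, and MTHFD2 and SHMT2 passed in the CKS2-labelled line alone (-0.49 and -0.40). In the BOP1- and NFIL3-labelled lines MTHFD2 was lower by 0.44 and 0.38 and SHMT2 by 0.19 and 0.14, without passing. The SHMT2 change was -0.61 without replicate 1 of the control line and -0.19 without its replicate 2, and the PCK2 change in the CKS2-labelled line was -0.20 with the mean of its probes. ASS1 was at 12.06 and 11.85 in the CKS2-labelled line and 11.79 and 11.82 in the NFIL3-labelled line, against 11.48 and 11.37 in the control line (0.53 and 0.39; limma adjusted p = 0.00191 and 0.0124). In the BOP1-labelled line ASS1 was higher by 0.25 and did not pass. Its second bright probe was higher there by 0.44 (limma adjusted p = 0.0229), and the dimmest, higher by 0.70, did not pass. CTH was higher by 0.49 in the CKS2-labelled line (limma adjusted p = 0.0217), and by 0.18 and 0.40 in the BOP1- and NFIL3-labelled lines without passing.

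Few of these calls passed under every alternative: ATF3 and DDIT3 in the BOP1-labelled line, ASS1 in the CKS2-labelled line and ASNS in the NFIL3-labelled line. The other calls were lost in a fit on the 4 arrays compared or without 1 of those arrays, the control arrays among them, with adjusted p up to 0.198, 0.4 and 0.132 in the 3 lines. Leaving out single arrays gave 2 to 4, 2 to 3 and 2 to 4 calls in the BOP1-, CKS2- and NFIL3-labelled lines. Of the 9 carriers, 2, 4 and 4 fell and 0, 0 and 1 rose, with SLC7A5 lower in each line by 0.40, 0.48 and 0.62, and of the 18 synthetases 5, 6 and 6 fell and 1 rose in each. Of the 15 other targets, 6, 6 and 4 rose and 1 fell in each line, with KLHL24 and CREBRF higher by 1.14 to 1.53. Of all genes 13.4, 13.7 and 14.1% were called in the 3 lines. The 17 eIF2 kinase, eIF2 and eIF2B genes had 1, 2 and 1 calls, and the 11 folate cycle and glycine cleavage genes 1, 2 and 2. The calls of these last 2 lists are no result about them. All these lists were compared with the same 2 control arrays.

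The transcription factors DDIT3 and ATF3 were higher in the BOP1-labelled line than in the control line. DDIT3, which encodes CHOP, was at 9.83 and 9.71 in the BOP1-labelled line in DMSO, against 9.08 and 9.11 in the control line (1.59-fold; 0.67 ± 0.11; limma adjusted p = 0.00117). ATF3 was at 10.34 and 10.35, against 9.61 and 9.64 in the control line (1.65-fold; 0.72 ± 0.13; limma adjusted p = 0.00279). In the CKS2-labelled and NFIL3-labelled lines DDIT3 changed by -0.17 and 0.04 and ATF3 by 0.13 and less than 0.01 against the control line, none of which passed. Set directly against the CKS2-labelled line, DDIT3 was higher by 0.84 ± 0.11 (limma adjusted p = 0.00889), and it was the 1 gene of all tested that passed (0.00824%). That call was lost without either DMSO array of the BOP1-labelled line, without replicate 2 of the CKS2-labelled line and in a fit on the 4 arrays (adjusted p up to 0.507).

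Against the NFIL3-labelled line DDIT3 differed by 0.63 and ATF3 by 0.72 and did not pass (limma adjusted p = 0.0973 and 0.137), nor did ATF3 against the CKS2-labelled line (0.59; adjusted p = 0.699). PPP1R15A, a target of CHOP, was at 10.76 and 10.76 in the BOP1-labelled line, against 10.38 and 10.48 in the control line (0.33 ± 0.09; limma adjusted p = 0.0265), a call lost without any 1 of the 4 arrays. Both genes stood high under every treatment of the BOP1-labelled line. DDIT3 was at 9.72 and 9.90 under LY294002, 9.52 and 9.50 under SP600125 and 9.83 and 9.82 under DAPT. All 8 arrays of this line lay above the 16 others, of which the highest was 9.37, and the 8 arrays had ATF3 levels of 9.99 to 10.73, against 9.91 or less on the others. ATF4, CEBPB, CEBPG, ATF5 and JDP2 did not pass in any line against the control line.

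DAPT and SP600125 were tested in the BOP1-labelled line alone, and 0 of 30 genes passed limma under either. Of all genes 0.00824% passed under DAPT and 0% under SP600125. At an unadjusted p below 0.05 there were 6 genes of the module under DAPT, all higher, and 5 under SP600125, all lower. At that threshold stood 12.6% of all genes under DAPT (5.96% higher, 6.6% lower) and 11.7% under SP600125 (5.06% higher, 6.67% lower). ASNS was at 13.77 and 13.61 under DAPT, against 13.01 and 13.17 in DMSO (0.60 ± 0.11; limma adjusted p = 0.0553). PHGDH was at 14.41 and 14.52 under DAPT, against 13.98 and 14.16 in DMSO (0.39 ± 0.10; adjusted p = 0.136 by limma), and PSAT1 at 12.23 and 12.15, against 11.66 and 11.89 (0.41 ± 0.11; limma adjusted p = 0.157). In these 3 genes the DAPT arrays were the higher ones without overlap. Other genes that did not pass lay apart the other way, among them ATF3 (-0.13), ATF4 (-0.07) and DDIT4 (-0.04). Such separation of 2 arrays from 2 was not counted over all genes.

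PCK2 was higher under DAPT by 0.39, MTHFD1L by 0.29 and STC2 by 0.30, with limma adjusted p from 0.187 to 0.395. With the authors' processed values, or with the mean of all probes of a gene, 1 gene of the module passed under DAPT. With the processed values 0.305% of all genes passed there. ATF4 was at 14.40 and 14.43 under DAPT and 14.63 and 14.51 under SP600125, against 14.53 and 14.44 in DMSO, and did not pass under either. Under SP600125 the 5 genes were JDP2 (-0.49), EIF4EBP1 (-0.46), MTHFD1 (-0.41), ALDH18A1 (-0.27) and DDIT3 (-0.26), with limma adjusted p from 0.274 to 0.361. Their standard errors lay between 0.11 and 0.18.

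Across the 12 group means the genes differed in which they followed, given here as a description over groups that share lines and DMSO arrays. ASNS was most like PSAT1 (r = 0.96) and TRIB3 (r = 0.94), and PHGDH was most like STC2 and ASNS (r = 0.90 each). ATF4 mRNA was most like ATF5 (r = 0.88) and correlated with ASNS at 0.77. ATF3 and DDIT3 were nearest to each other (r = 0.82) and ATF3 was at r = -0.03 with ASNS, while ASS1 ran against ASNS (r = -0.80). PHGDH, PSPH, ASNS, PCK2, DDIT3, CEBPB, SESN2 and STC2 had their highest group mean under DAPT in the BOP1-labelled line, where none of them passed against DMSO. More genes had theirs in the control line: PSAT1, SHMT2, MTHFD1, MTHFD1L, ALDH18A1, PYCR1, CEBPG, NUPR1, JDP2, XPOT and EIF4EBP1. The highest and lowest group means of ATF4 were 14.70 under SB203580 and 14.26 under Rapamycin, both in the NFIL3-labelled line, a range of 0.44, against 1.42 for PHGDH and 1.30 for TRIB3.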

How the data were processed

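RNA was extracted with Trizol and RNeasy, labelled as cRNA with the Ambion TotalPrep kit and hybridised to Illumina HumanHT-12 v4 bead arrays, per the labels' protocols. GenomeStudio 2010.1 and Partek appear in the submitters' processing notes with no stated use. The authors deposited, per the file headers, an unnormalized signal intensity and a detection p-value for each of 47323 probes on each of 24 arrays, and a second table of processed intensity values, which the values show to be normalized between arrays and which served as an alternative after a log2 transform.

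The unnormalized intensities were background-corrected with the detection p-values, quantile-normalized and put on a log2 scale with an offset of 16 (neqc, limma 3.58.1, R 4.3.3). Probes with 1 gene symbol in the platform annotation (30113; 8 have several, 17202 none) were kept when the detection p was below 0.01 on at least 2 arrays, and a gene was represented by its brightest kept probe. In limma the 12 group means of 12141 genes were estimated jointly from all 24 arrays, with 12 residual degrees of freedom, and p-values were adjusted by Benjamini-Hochberg over all genes in each comparison, with a threshold of 0.05. The differences between log2 values are log2 changes, and a fold is 2 raised to them. Where a probe was below background on every array of a group, a lower bound is given, computed against the lowest signal detected on those arrays. The fit was tested on simulated data.

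The labels call arrays biological replicates and name no cultures or batches, so the spread behind each p-value is that among these arrays and may be technical. Arrays with the same replicate number did not deviate together (r from -0.10 to 0.29 over 66 pairs of groups, 3 of them over 0.1), so the number was not used to pair arrays. With 2 arrays a group, precision is limited by their number. The members and all gene lists were chosen with earlier results of these data known. Values on every array are given for ATF4, DDIT3, ASNS and the genes with the smallest p in each comparison, and genes past the threshold are named with their change. Alternatives were the authors' processed table, cyclic loess, no detection filter, the mean of a gene's probes, the replicate block, only the arrays compared, and each array left out. Promoter sequences are RefSeq's, build GRCh38.p14.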

Additional observations from a re-analysis of the deposited data

Results flagged for a closer look

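DDIT3, which encodes CHOP, differed between lines in the same solvent. It was higher by 0.84 on the log2 scale in the BOP1-labelled line than in the CKS2-labelled line in DMSO, at 9.83 and 9.71 against 9.05 and 8.81, a difference that passed limma's test of the lines (adjusted p = 0.00889) and was lost when either DMSO array of the BOP1-labelled line, or replicate 2 of the CKS2-labelled line, was left out.

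MTHFD1L moved in opposite directions under SB203580, with both arrays of each line on its side of DMSO. The change was -0.23 in the CKS2-labelled line, at 11.99 and 11.73 under SB203580 against 12.05 and 12.13 in DMSO. It was 0.21 in the NFIL3-labelled line, at 11.89 and 11.96 under SB203580 against 11.62 and 11.80 in DMSO. Neither change passed, and limma's test of the difference between the lines gave -0.44 ± 0.17 with an unadjusted p of 0.0174 and an adjusted p of 1.00.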

How the results depend on the processing

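No call of the 97 made on the 30 genes reversed under any alternative run, and 38 passed under every one. With the authors' processed table, 8 genes passed in the BOP1-labelled line against the control line (5 in the reported model), 10 in the NFIL3-labelled line (5), 1 under DAPT (0), and 3 between the lines in DMSO (1). With cyclic loess, 8 passed in the BOP1-labelled and 8 in the NFIL3-labelled line against the control line. Of all genes 13.4 and 14.1% passed in these 2 lines in the reported model. The shares were 16.2 and 16.8% with the processed table and 15.4 and 16.3% with cyclic loess. Under the remaining alternatives the shares of all genes are not set beside the counts here. Without the detection filter, 4 passed in the CKS2-labelled line against the control line (7), 4 between LY294002 and Rapamycin (7) and 4 under Rapamycin (6). With the mean of a gene's probes, 1 passed under DAPT. With only the arrays compared, fewer passed against the control line: 3, 4 and 1 in the BOP1-, CKS2- and NFIL3-labelled lines. Under LY294002 8, 6 and 8 passed in those lines (12 each), 0 under Rapamycin (6) and 1 under SB203580 in the NFIL3-labelled line (6). Between LY294002 and Rapamycin 2 passed, and 0 between the lines in DMSO. That alternative fits 2 arrays against 2, with a spread from those arrays alone. Smaller changes of other counts are not listed here.

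Leaving out single arrays gave 2 to 4, 2 to 3 and 2 to 4 genes in the BOP1-, CKS2- and NFIL3-labelled lines against the control line, 17 to 19 under LY294002 over the 3 lines, and 7 to 9, 8 to 14 and 8 to 10 in the single lines. It gave 3 under Rapamycin whichever array was left out, 3 to 4 and 3 to 5 under SB203580 in the CKS2- and NFIL3-labelled lines, 2 to 3 between LY294002 and Rapamycin, 0 to 1 between the lines in DMSO, and 0 under DAPT, under SP600125 and for effects between lines. A group left with 1 array was assumed to vary like the others. With the replicate number as a block, 6 genes passed in the NFIL3-labelled line against the control line (5), 6 between LY294002 and Rapamycin (7) and 19 under LY294002 over the 3 lines (19), and all other counts were the same as without the block. Signals near background limit NUPR1, JDP2, SESN2 and EIF4EBP1.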
